A study of Mus musculus with 4 samples.

Results

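The numbered Zfp genes are mouse genes named Zfp and a number, most of which encode zinc finger proteins. They were followed here in newly made RNA after 5 h of auxin in cells with a degron on SNRNP70. Members were the rows of the count table with such a symbol and at least 100 counts in each of the 4 libraries, leaving out Zfp207 and Zfp42. The rule gave 258 of the 55401 rows, out of 374 numbered Zfp genes of any level, and all 258 passed the count filter of the fit. The counts themselves chose the members, so their levels are a description and the minimum bears on the fold changes as given below. The cells were 129/Ola mouse embryonic stem cells with an auxin-inducible degron on SNRNP70, a protein of the U1 snRNP, which marks 5′ splice sites. In 2 libraries the cells had received IAA, an auxin, for 5 h (genotype label "SNRNP70 degration"). The other 2 libraries came from the same degron line at 0 h, labelled WT although their titles carry the degron. No library came from auxin-treated cells without the degron, so auxin and loss of SNRNP70 cannot be told apart. RNA was caught through 4-thiouridine (4sU), a uridine analogue taken up into RNA being made, and the label time, any spike-in and the number of cell clones are not given in the sources used here.

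Library totals were 15645894 and 10349277 counts at 5 h and 17752887 and 7174772 counts at 0 h. Nothing in the labels places the replicates in separate cultures, so p-values measure the spread between these libraries, which may be technical. All 10 listed markers of pluripotent stem cells had at least 100 counts in each library, and their summed level was 3610 and 3470 CPM of the library total at 5 h and 3700 and 3500 CPM at 0 h. Markers of primitive endoderm, feeder fibroblasts and 2-cell-like cells summed to at most 17.5 CPM in any library. Trophoblast markers summed to 135 and 148 CPM at 5 h and 103 and 100 CPM at 0 h, with 1 of 6 genes (Tfap2c, which stem cells also express) above the minimum, and early neural and mesodermal markers to 39.8 and 52.6 CPM against 40.2 and 38.2 CPM. Their part in the results was not tested.

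Zinc fingers of the C2H2 kind are small folds held by a zinc ion that read DNA when strung in arrays. Many numbered Zfp genes add a KRAB domain, which recruits TRIM28 and, through it, the histone methyltransferase SETDB1 and HP1 proteins, and which is best known in embryonic stem cells for silencing retroelements and keeping imprints. The genes multiply by local duplication, so that many sit in clusters of close relatives. Others act outside this system, among them ubiquitin and SUMO ligases, ribosome assembly factors and RNA-binding proteins.

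Sequences before the transcription start show how close some relatives are. RefSeq promoter windows (GRCm38.p6, 250 bases before to 50 after the start) were found for 210 of the 258 members. Of 330 pairs of members within a genomic cluster, 9 had windows that were at least 80% identical in a global alignment. The first pair below, Zfp936 (chr7:43177340-43177639, + strand) and Zfp977 (chr7:42592496-42592795, - strand), and the second, Zfp988 (chr4:147305354-147305653, + strand) and Zfp534 (chr4:147702582-147702881, - strand), were 89.8% identical each. The Zfp936 window lies inside the RefSeq span of that gene (43114166 to 43192109), from which its length is taken below, and not at its outer start. Zfp472 (chr17:32965581-32965880, + strand) and Zfp799 (chr17:32830212-32830511, - strand) are shown because these neighbours moved in opposite directions. Capitals mark CCAAT and GGGCGG on either strand, the letters bound by NF-Y and by Sp and Klf factors, which overlap each other in Zfp988.
Zfp936: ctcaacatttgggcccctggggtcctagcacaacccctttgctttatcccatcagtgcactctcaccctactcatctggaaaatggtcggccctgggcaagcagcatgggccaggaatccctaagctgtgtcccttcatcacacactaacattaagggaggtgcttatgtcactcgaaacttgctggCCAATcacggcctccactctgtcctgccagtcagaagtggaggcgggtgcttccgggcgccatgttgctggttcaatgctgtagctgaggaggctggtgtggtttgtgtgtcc
Zfp977: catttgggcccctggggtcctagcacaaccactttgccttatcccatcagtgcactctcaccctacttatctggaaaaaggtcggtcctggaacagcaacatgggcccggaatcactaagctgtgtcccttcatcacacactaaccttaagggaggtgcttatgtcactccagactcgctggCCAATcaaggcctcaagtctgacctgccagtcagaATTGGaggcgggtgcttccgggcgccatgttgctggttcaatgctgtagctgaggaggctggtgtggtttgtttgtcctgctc
Zfp988: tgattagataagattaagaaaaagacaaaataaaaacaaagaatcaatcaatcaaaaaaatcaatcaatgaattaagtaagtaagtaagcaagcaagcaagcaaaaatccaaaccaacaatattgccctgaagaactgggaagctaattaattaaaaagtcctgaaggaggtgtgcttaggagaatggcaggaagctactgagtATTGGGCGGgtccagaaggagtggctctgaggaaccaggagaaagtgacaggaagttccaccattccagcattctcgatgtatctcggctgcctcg
Zfp534: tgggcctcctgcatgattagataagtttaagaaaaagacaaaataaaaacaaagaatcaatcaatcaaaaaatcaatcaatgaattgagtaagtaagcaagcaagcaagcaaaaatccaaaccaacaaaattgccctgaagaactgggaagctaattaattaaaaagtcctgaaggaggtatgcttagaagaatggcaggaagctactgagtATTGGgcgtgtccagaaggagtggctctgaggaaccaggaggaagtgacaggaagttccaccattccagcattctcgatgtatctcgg
Zfp472: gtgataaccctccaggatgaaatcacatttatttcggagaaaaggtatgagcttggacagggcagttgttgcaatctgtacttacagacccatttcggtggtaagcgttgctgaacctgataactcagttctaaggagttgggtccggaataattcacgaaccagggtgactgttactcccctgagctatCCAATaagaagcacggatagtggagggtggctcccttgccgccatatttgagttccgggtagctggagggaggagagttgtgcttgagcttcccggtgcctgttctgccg
Zfp799: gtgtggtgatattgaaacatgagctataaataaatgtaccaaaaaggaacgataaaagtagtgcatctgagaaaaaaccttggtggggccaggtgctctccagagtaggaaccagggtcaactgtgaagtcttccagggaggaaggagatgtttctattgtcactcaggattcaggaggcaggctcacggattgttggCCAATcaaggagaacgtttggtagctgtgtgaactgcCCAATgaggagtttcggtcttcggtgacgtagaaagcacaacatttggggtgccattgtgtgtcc

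The members' windows were poorer in CpG and richer in CCAAT than those of other genes at this level. CCAAT stood in 56.7% of the 210 windows, against 41.0% for all genes with the same minimum and 37.9% of all 27025 promoters. GGGCGG stood in 43.3% of them, against 68.1% and 35.9%. The median number of CpG was 12 in the members, 23 in all genes with the minimum and 7 in all 27025 promoters. Among members, the median log2 fold change was 0.06 with CCAAT and 0.04 without it, and 0.01 with GGGCGG and 0.10 without it. A match is a description of letters, and no test was made.

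After 5 h of auxin the numbered Zfp genes split both ways. Of 258 members, 69 rose, 74 fell and 115 did not pass (edgeR quasi-likelihood test, Benjamini-Hochberg adjusted p below 0.05 over 17344 tested genes). That was 26.7% higher and 28.7% lower. Among all tested genes 22.0% were called higher and 21.2% lower, and among the 8245 genes with the same minimum 33.2% and 26.4%. The members' median log2 fold change was 0.02, while that of the whole tested set was -0.02 and that of genes with the minimum 0.06, and members ran from -1.64 to 1.34. A call with a change of 2-fold or more came in 7 members that rose and 16 that fell, with 7.60% and 10.2% of all tested genes, and 5.65% and 6.61% of those with the minimum, as background. The 5 h and 0 h libraries did not overlap in 102 members that were higher and 109 that were lower at 5 h, of which 68 did not pass. Such separation was found, higher and lower, for 36.0% and 37.5% of all tested genes and for 44.4% and 37.9% of the genes with the minimum.

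**Figure D1:**
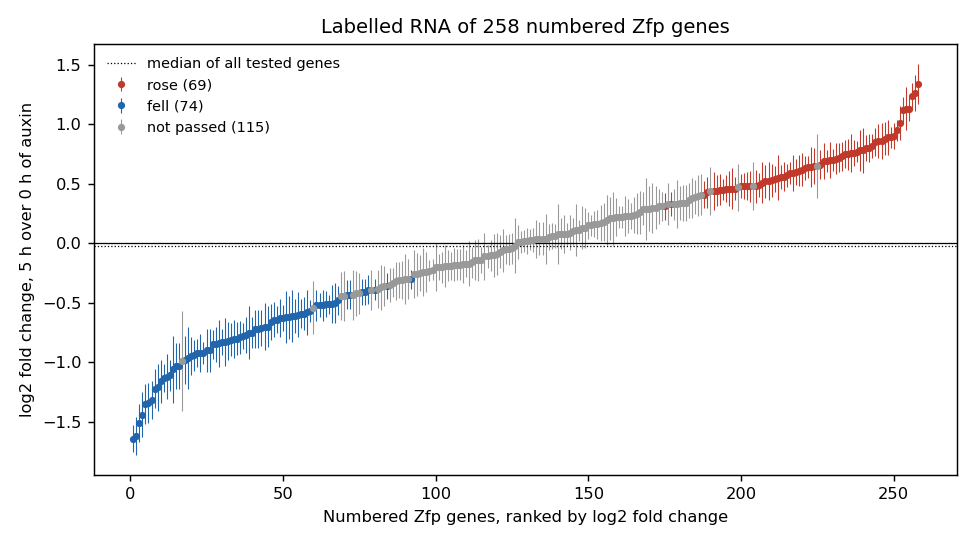
Log2 fold change (5 h over 0 h of auxin, TMM scale) of the 258 numbered Zfp genes in rank order, each point 1 gene with its standard error. Red points (69) rose, blue points (74) fell, grey points (115) did not pass, and the dotted line is the whole tested set's median of -0.02.

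A minimum set in every library can leave out a gene because it fell or because it rose. Of the 116 numbered Zfp genes under it, 95 passed the count filter, and of these 9 rose and 32 fell, and their median was -0.50 on the log2 scale. All 9099 tested genes under the minimum had a median of -0.13, with 11.8% higher and 16.5% lower. Only 5 h libraries were under the minimum in 14 of the 95 and only 0 h libraries in 10, against 723 and 854 of the 9099. The 14 included 13 of the 32 that fell. Without 0 h replicate 2, the shallowest library, 5 rose and 22 fell. Over all 353 tested numbered Zfp genes the counts were 78 higher and 106 lower, and the median was -0.11. Just inside the minimum lay Zfp39, Zfp536 and Zfp934, with log2 fold changes of -0.62, 0.29 and -0.83. Just outside lay Zfp28 (0.23), Zfp493 (-1.55) and Zfp972 (0.32).

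The split also rested on the scale, because labelled RNA was measured only relative to the rest of each library. Scaling to library totals gave 38 members higher and 111 lower (13.2% and 30.3% of all tested genes). Scaling to the mitochondrially encoded genes gave 0 higher and 171 lower (2.28% and 51.2% of all tested genes). All tested genes include those under the minimum, which are called less often. Under TMM 11.8% of these were higher and 16.5% lower, against 33.2% and 26.4% of genes with the minimum. Shares of genes with the minimum were not worked out for either of these scalings. The members' median followed that of all tested genes, lying above it by 0.04 under TMM, by 0.04 under library totals and by 0.03 under the mitochondrial scale. Under TMM the members' median of 0.02 lay below the 0.06 of genes with the same minimum. The mitochondrial share of a library was 6.03% and 7.17% at 5 h, against 4.41% and 4.34% at 0 h. Every level below is in CPM after TMM (edgeR's trimmed-mean factors), every fold change is on that scale, and "rose" and "fell" are relative to the median gene.

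The largest rise was that of Zfp472 on chromosome 17 (32965831 to 32979211, mm10). It had 51.5 and 60.0 CPM at 5 h, against 24.7 and 18.6 CPM at 0 h. Both 5 h libraries lay above either 0 h library. The log2 fold change was 1.34 ± 0.17 (SE), or 2.54-fold (edgeR adjusted p = 0.00015). Zfp574, on chromosome 7, had 194 and 144 CPM at 5 h and 77.2 and 63.2 CPM at 0 h, a log2 fold change of 1.26 ± 0.15. Zfp367, on chromosome 13, had 162 and 184 CPM at 5 h and 72.8 and 74.1 CPM at 0 h (log2 1.24 ± 0.11). In CPM the 5 h libraries of these genes differed from each other more than the 0 h libraries did, without reaching them. As a ratio between libraries this did not hold for Zfp472.

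Of the other genes that rose 2-fold or more, Zfp553 had 281 and 273 CPM at 5 h and 136 and 116 CPM at 0 h (log2 1.13 ± 0.10). Zfp296, which acts with KLF4 in pluripotent cells, had 167 and 160 CPM at 5 h and 81.5 and 69.0 CPM at 0 h (log2 1.12 ± 0.11). Zfp800 (1.13 ± 0.18) and Zfp513 (1.01 ± 0.14) completed the 7. Their libraries did not overlap between times. Zfp646 (0.95 ± 0.09), Zfp715 (0.90 ± 0.11) and Zfp37 (0.89 ± 0.15) followed. With mitochondrial scaling the 10 kept positive values, from 0.04 for Zfp37 and Zfp715 to 0.50 for Zfp472, and none passed.

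Zfp652 fell most. It encodes a protein whose human counterpart represses transcription and lies on chromosome 11 (95749067 to 95764715, mm10). Its level was 43.4 and 43.9 CPM at 5 h, against 139 and 134 CPM at 0 h. The replicates lay close together at both times and the log2 fold change was -1.64 ± 0.11 (edgeR adjusted p = 7.82e-06). Zfp953, on chromosome 13, had 15.5 and 12.9 CPM at 5 h and 43.2 and 44.9 CPM at 0 h (log2 -1.62 ± 0.16). Zfp512, on chromosome 5, had 13.1 and 15.2 CPM at 5 h and 41.3 and 38.7 CPM at 0 h (log2 -1.51 ± 0.16). The 5 h level over the 0 h level was 0.32 for Zfp652, 0.325 for Zfp953 and 0.352 for Zfp512.

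Zfp113 (-1.44 ± 0.19) and Zfp617 (-1.35 ± 0.17) came next. They were followed by 3 genes of the chromosome 13 cluster described below, Zfp759 (-1.34 ± 0.17), Zfp87 (-1.32 ± 0.16) and Zfp595 (-1.22 ± 0.16), and by Zfp27 (-1.21 ± 0.20) and Zfp53 (-1.16 ± 0.18). In each the highest 5 h library lay below the lowest 0 h library, and the values stayed negative under every scaling tried. Replicates did not always lie so close: Zfp160, chosen after its values were seen, had 55.3 and 23.9 CPM at 5 h and 72.3 and 88.7 CPM at 0 h, and its log2 fold change of -0.99 ± 0.42 did not pass (edgeR adjusted p = 0.138). Of these 20 genes at the ends of the ranking, 10 overlap another RefSeq gene, among them Zfp595 and Zfp953 with each other. With the strand setting not given, their reads could not be told apart from those of the partner. The same limit holds for 96 of the 255 members matched to RefSeq. Among those named below they include Zfp131, Zfp335, Zfp532, Zfp593, Zfp638, Zfp706, Zfp830, Zfp936, Zfp977 and Zfp988. They also include Zfp91, Zfp410, Zfp445, Zfp459, Zfp462, Zfp609, Zfp687 and Zfp809.

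**Figure D2:**
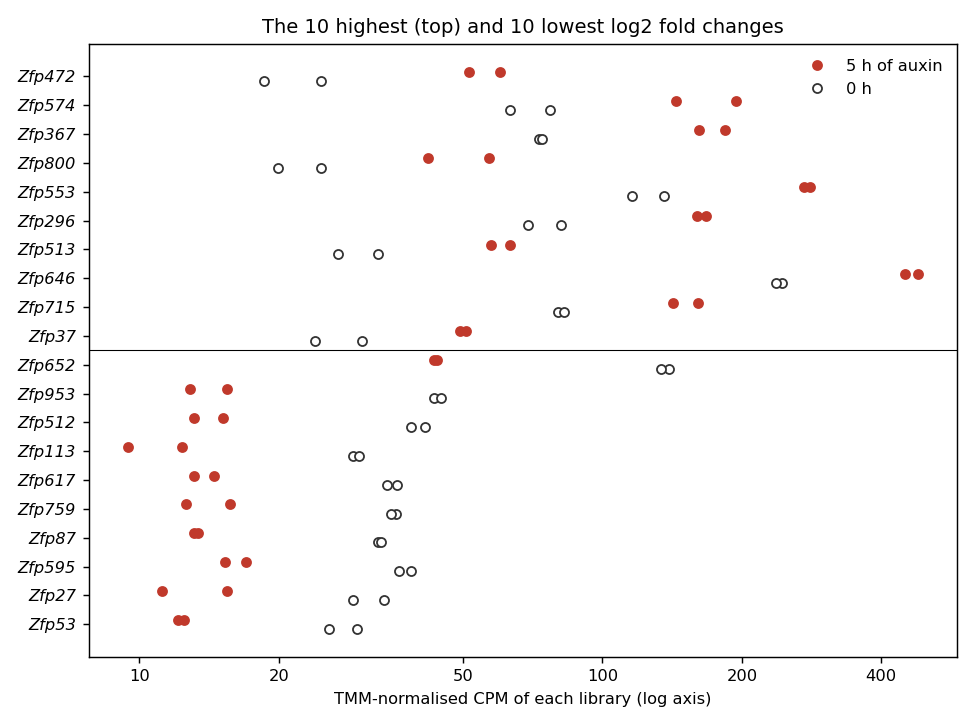
Normalised level (TMM-normalised CPM, log axis) in each library of the 10 called numbered Zfp genes that rose most and the 10 that fell most, red for 5 h and open for 0 h. The groups do not overlap in any of the 20, from Zfp472 (51.5 and 60.0 against 24.7 and 18.6) to Zfp53 (12.5 and 12.1 against 25.7 and 29.5).

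A list of 30 genes with a described role in silencing, transcription, RNA or protein modification held 29 members. Of these, 12 rose, 6 fell and 11 did not pass, beside 33.2% higher and 26.4% lower among all genes with the minimum, and the median was 0.22 beside the members' 0.02. Its 4 genes of imprint, placental Igf2 and retroelement control come first. Zfp57, which keeps DNA methylation on imprinted regions, had 393 and 424 CPM at 5 h and 583 and 579 CPM at 0 h. It fell by 0.51 on the log2 scale (edgeR adjusted p = 0.000808). Zfp568, which represses an early placental Igf2 transcript, had 312 and 281 CPM at 5 h and 439 and 444 CPM at 0 h, a log2 fold change of -0.57 ± 0.09. Zfp445, a second imprint keeper, had 181 and 185 CPM at 5 h and 212 and 218 CPM at 0 h, and did not pass (log2 -0.23 ± 0.09, edgeR adjusted p = 0.0555). The Zfp445 call depended on the processing: it passed as lower with library totals (-0.50), the stricter filter, limma-voom and counts divided by 4. Zfp809, which silences retroviral DNA, had 113 and 125 CPM at 5 h and 111 and 118 CPM at 0 h, with overlapping groups (0.06 ± 0.10).

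Transcription regulators of stem cells were mixed. Zfp281, a factor of pluripotent cells that works with NANOG, had 864 and 939 CPM at 5 h and 587 and 614 CPM at 0 h, and rose by 0.59 ± 0.09 on the log2 scale. Zfp335, a partner of a histone methyltransferase complex, rose by 0.80 ± 0.12, and the BTB-domain gene Zfp131 by 0.85 ± 0.12. Zfp706, which helps cells leave self-renewal (0.46 ± 0.10), Zfp110, known for binding a neurotrophin receptor (0.33 ± 0.10), and Zfp148 (0.31 ± 0.11) passed as higher, but all 3 calls were lost with library totals (0.20, 0.06 and 0.04) and without 0 h replicate 1. Those of Zfp110 and Zfp148 were also lost without 0 h replicate 2, and that of Zfp148 without 5 h replicate 2 (0.19). With mitochondrial scaling Zfp110 (-0.52) and Zfp148 (-0.55) passed as lower, beside 51.2% of all tested genes. Zfp131 had 263 and 339 CPM at 5 h and 167 and 166 CPM at 0 h. Zfp143, an activator of snRNA and many other promoters, had 42.7 and 47.3 CPM at 5 h and 65.6 and 70.4 CPM at 0 h, and fell (log2 -0.59 ± 0.12). Zfp410, the activator of Chd4 (-0.04 ± 0.13), Zfp462 (0.03 ± 0.09) and Zfp217 (-0.22 ± 0.09) did not pass. Zfp217 passed as lower with library totals (-0.49), the stricter filter and counts divided by 4, and without 5 h replicate 1 (-0.27).

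Of the 3 paralogs that bind ZMYND8 in human cells, 1 passed. Zfp532 had 176 and 166 CPM at 5 h, against 323 and 323 CPM at 0 h, and fell (log2 -0.92 ± 0.09). Zfp592 had 98.2 and 91.2 CPM at 5 h, against 78.9 and 83.1 CPM at 0 h, and did not pass (0.23 ± 0.11). Zfp687, the last of them, had 76.0 and 53.5 CPM at 5 h, against 73.9 and 72.3 CPM at 0 h (-0.17 ± 0.16), and did not pass. Single libraries changed the calls of Zfp592 and Zfp687. Zfp592 passed as higher without 5 h replicate 2 (0.30), and Zfp687 passed as lower without 5 h replicate 1 (-0.45). Differences between these genes were not tested. Zfp644, which recruits the G9a methyltransferase, had 310 and 304 CPM at 5 h and 294 and 316 CPM at 0 h (0.01 ± 0.09).

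Members that act on RNA, ribosomes or protein modification also moved both ways. Zfp638, an RNA-binding partner of SETDB1 in silencing unintegrated retroviral DNA, had 179 and 225 CPM at 5 h and 346 and 350 CPM at 0 h (log2 -0.78 ± 0.11), and Zfp106, which binds GGGGCC repeat RNA, had a log2 fold change of -0.30 ± 0.08. Both passed as lower, and the call of Zfp106 was lost without 0 h replicate 1 (-0.26) and without 0 h replicate 2 (-0.32). Zfp830, found with spliceosomes, had 74.7 and 89.0 CPM at 5 h and 41.5 and 49.2 CPM at 0 h (0.86 ± 0.14). Zfp622 (0.66 ± 0.12), the counterpart of a yeast factor that matures the large ribosomal subunit, rose, as did Zfp598 (0.62 ± 0.14), the ligase that marks collided ribosomes, and the SUMO ligase gene Zfp451 (0.70 ± 0.09). With library totals Zfp598 did not pass (0.36). Zfp593 (0.51 ± 0.17), a counterpart of another such yeast factor, passed as higher, but not with DESeq2 (0.52), with library totals (0.24), without either 0 h library (0.55 and 0.48) or without 5 h replicate 1 (0.40). Zfp326, which couples elongation to splicing in human cells (0.38 ± 0.17), the ubiquitin ligase gene Zfp91 (0.22 ± 0.09) and Zfp609, an Integrator partner (0.15 ± 0.11), did not pass. Without 5 h replicate 1, Zfp326 (0.63) and Zfp91 (0.30) passed as higher. A second row named Zfp91, under the minimum and so not a member, passed as higher (0.93 ± 0.32, edgeR adjusted p = 0.039). With mitochondrial scaling, 11 of the 12 role-list members that rose had values from -0.55 to -0.01 and Zfp296 had 0.28.

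**Figure D3:**
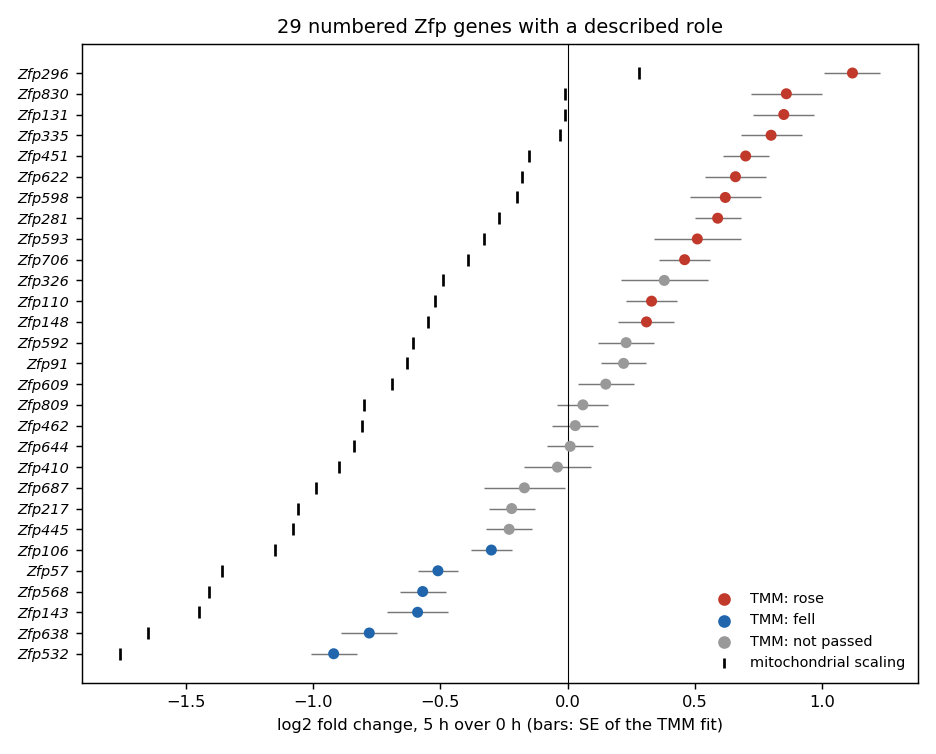
Log2 fold change (5 h over 0 h) of the 29 role-list members, coloured by the call of the TMM fit with its standard error, with ticks for mitochondrial scaling. Points run from -0.92 for Zfp532 to 1.12 for Zfp296, and every tick lies left of its point.

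Genes through which KRAB proteins silence were also examined. Of 24 listed, 11 rose, 6 fell and 7 did not pass, beside 33.2% higher and 26.4% lower among genes with the same minimum, which all 24 reached. The median was 0.27, with 0.36 without 5 h replicate 1 and 0.13 without 5 h replicate 2, and -0.00 with library totals. Trim28, the co-repressor that KRAB domains bind, had 1690 and 1400 CPM at 5 h and 823 and 815 CPM at 0 h (log2 0.91 ± 0.10). Ehmt2, the G9a methyltransferase, had 209 and 153 CPM at 5 h and 79.6 and 72.7 CPM at 0 h, and rose by 1.25 ± 0.14 on the log2 scale. The 6 that fell were Ehmt1 (-0.76 ± 0.10), Cbx1 (-0.57 ± 0.11), Kdm1a (-0.53 ± 0.10), Morc3 (-0.47 ± 0.10), Smarcad1 (-0.42 ± 0.09) and Uhrf1 (-0.34 ± 0.09). With mitochondrial scaling 0 of the 24 rose and 15 fell. Among other zinc finger families at the same minimum, 15 of 33 Zbtb genes rose and 7 fell (median 0.37), 4 of 5 Zkscan genes fell and none rose (median -0.85), and 3 of 9 Zscan genes rose and none fell (median -0.23). The absence of Zscan genes that fell depended on the processing. With library totals 5 fell, with the stricter filter 4, with counts divided by 4 2, and with the replicate block 1. All genes tested in those fits had 30.3%, 30.1%, 30.2% and 20.4% lower. With mitochondrial scaling 6 Zscan genes fell, beside 51.2% of all tested genes. Some also fell without 5 h replicate 1 or without 5 h replicate 2. The Zbtb counts moved with the scale too. With library totals 9 Zbtb genes rose, beside 13.2% of all tested genes. With mitochondrial scaling 0 Zbtb genes rose and 17 fell, beside 2.28% and 51.2% of all tested genes. The differences from the numbered Zfp genes were not tested.

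Members were also set beside all genes of like length. The RefSeq span from start to end, matched for 255 members, had a median of 19593 bp, against 25189 bp for 7903 genes with the same minimum. Of 30 members under 10 kb, 17 rose (56.7%) and 4 fell (13.3%), with a median log2 fold change of 0.52. All 1730 genes of that class with the same minimum had 56.4% higher, 8.9% lower and a median of 0.51. Of 99 members of 10 to 20 kb, 25 rose and 27 fell, beside 34.0% and 22.9% of all genes of the class, and the median was 0.02, against 0.10. The median was -0.05 for 98 members of 20 to 50 kb, against -0.08, and -0.09 for 28 members over 50 kb, against -0.19. Spearman's rho between span and log2 fold change was -0.199 across members and -0.366 across all genes with the minimum; genes share libraries and are not replicates. With all libraries 30 members of 20 to 50 kb fell (30.6%) and 11 over 50 kb (39.3%), beside 32.6% and 38.7% of all genes of these classes. Without 0 h replicate 2, fewer members fell under 10 kb, from 20 to 50 kb and over 50 kb. Shares of all genes by span were not worked out for that fit. With mitochondrial scaling no member under 10 kb rose and 11 fell, beside 2.28% and 51.2% of all tested genes of any span.

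**Figure D4:**
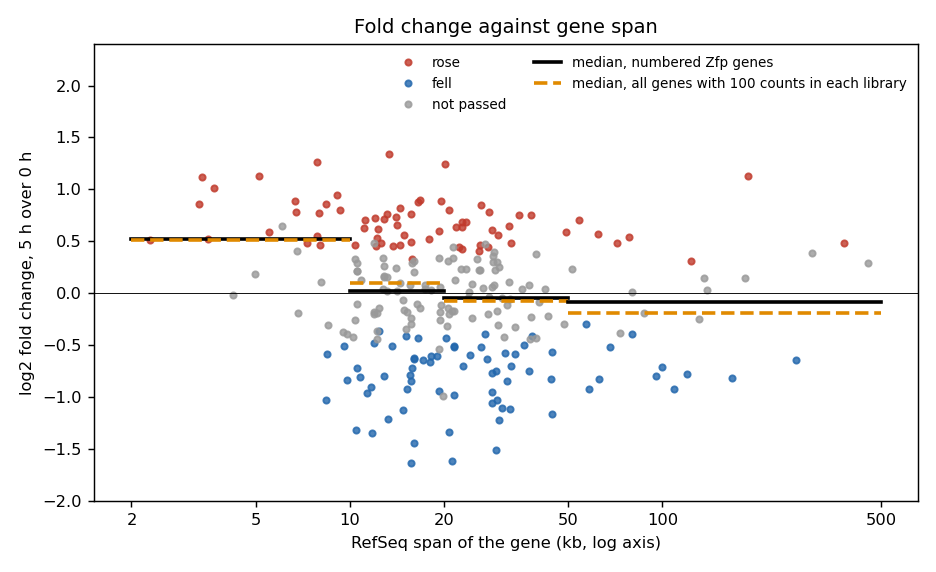
Log2 fold change (5 h over 0 h) against RefSeq span (kb, log axis) for 255 numbered Zfp genes, with the median of each span class for these genes (black) and for all genes with 100 counts in each library (orange, dashed). Both medians are 0.52 and 0.51 under 10 kb and lie below 0 over 20 kb.

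Members were also grouped by position, in a way chosen after their values were seen and therefore without a test. Runs of at least 5 members whose starts were no more than 500 kb apart made 11 clusters with 94 members. Of these 94, 22 rose (23.4%) and 28 fell (29.8%), with a median of -0.10. Of 87 members with no other within 500 kb, 28 rose (32.2%) and 24 fell (27.6%), with a median of 0.04. Among all genes with the minimum, 33.2% were called higher and 26.4% lower. The cluster on chromosome 13 (66670274 to 67729178, mm10) held 11 members, of which none rose and 6 fell. They were Zfp953, Zfp759, Zfp87, Zfp595, Zfp738 (-0.63 ± 0.11) and Zfp459 (-0.41 ± 0.11), and without 5 h replicate 1 a single member rose. A cluster of 9 on chromosome 4 (147124882 to 147849126) had none higher and 5 lower, with a median of -0.64. There Zfp988 had 26.9 and 33.3 CPM at 5 h and 52.0 and 64.5 CPM at 0 h, and Zfp534, with the similar window, had 46.0 and 63.3 CPM at 5 h and 89.1 and 96.7 CPM at 0 h. Both fell, and how counting treated reads shared by such relatives is not given in the sources used here. With library totals 8 of the 9 members on chromosome 4 fell, beside 30.3% of all tested genes. With mitochondrial scaling all 9 fell, as did all 11 of the chromosome 13 cluster, beside 51.2% of all tested genes.

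On chromosome 7 (42473386 to 43618279), 8 members gave 5 that rose and none that fell, with a median of 0.51. Zfp936 had 351 and 430 CPM at 5 h and 259 and 277 CPM at 0 h (log2 0.54 ± 0.11), while Zfp977, with the printed window 89.8% identical, had 56.2 and 59.7 CPM at 5 h and 52.1 and 51.7 CPM at 0 h (0.16 ± 0.12) and did not pass. With library totals 3 of the 8 rose, beside 13.2% of all tested genes. With mitochondrial scaling none of the 8 rose and 3 fell, beside 2.28% and 51.2% of all tested genes. Other clusters held both directions. On chromosome 17 (32765496 to 33394637), 4 of 9 members rose and 2 fell, beside 33.2% and 26.4% of all genes with the minimum. Zfp799 there had 33.8 and 34.9 CPM at 5 h and 76.4 and 73.4 CPM at 0 h (log2 -1.13 ± 0.12), and Zfp472, the member with the largest rise, lies 135570 bp away.

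**Figure D5:**
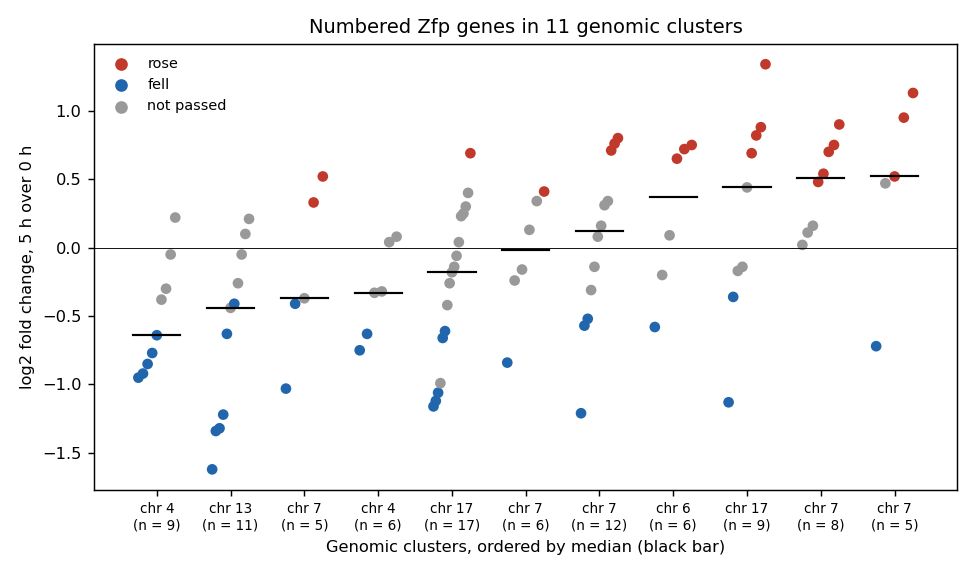
Log2 fold change (5 h over 0 h) of the numbered Zfp genes in the 11 genomic clusters, ordered by the cluster median (black bar), with red for genes that rose, blue for genes that fell and grey for the others. Medians run from -0.64 (9 genes, chromosome 4) to 0.52 (5 genes, chromosome 7), and 7 of the 11 clusters hold genes of both calls.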

How the data were processed

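Per the labels, 4sU-labelled RNA of embryonic stem cells was enriched with biotin-HPDP and streptavidin and sequenced. The submitters' processing notes name HISAT2 2.2.1, StringTie 2.2.1, DESeq2 1.42.0 and mm10, without saying which made the table. The deposited values are whole numbers in the layout of a StringTie export and were treated as estimated counts made by the authors from coverage. Rounding changed none. Annotation, strand setting and multi-mapping are not given in the sources used here. The table held 0 columns of other samples.

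Genes were filtered with filterByExpr, scaled by TMM and fitted in edgeR 4.0.16 (R 4.3.3), 5 h minus 0 h, all 4 libraries, glmQLFTest with robust estimation; the script was tested on simulated data. A value after ± is the SE of a log2 fold change unless stated. The members, lists and cluster rule were chosen with earlier results of these data known. Named genes were the 10 highest and 10 lowest called members without overlap, a role list, the 3 genes on either side of the minimum and the 3 silencing partners with the lowest adjusted p, of which 1 is not reported here. The 6 silencing partners that fell were named as well. In the role list, Zfp36 was under the minimum. Zfp91 names 2 rows, and only the higher one is a member. Spans and promoters came from RefSeq GRCm38.p6 by symbol, 1 window per gene. Protein classes planned by zinc finger number and KRAB box were not analysed here. Alternatives were DESeq2 1.42.0, limma 3.58.1 (voom), other scalings and filters, counts divided by 4, a replicate block and leaving out each library. The replicate numbers share only a number (deviations of same-numbered libraries correlated at 0.0505).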

Additional observations from a re-analysis of the deposited data

How the results depend on the processing

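Size factors by RLE, both filters, DESeq2, limma-voom, counts divided by 4 and the replicate block left the members' counts within 1.5 times of 69 higher and 74 lower; with the replicate block they were 71 and 75 (22.1% and 20.4% of all tested genes). Leaving out each library in turn gave 53 to 79 higher, 50 to 83 lower and a median of -0.02 to 0.07, and among all tested genes 2721 to 3765 higher and 2609 to 3834 lower. For the silencing partners it gave 9 to 13 higher and 4 to 8 lower, and for tested numbered Zfp genes under the minimum 5 to 7 higher and 22 to 29 lower. Library totals gave 38 members higher and a median of -0.25, 2297 genes higher in all, 6 silencing partners higher and 5 genes under the minimum higher. Mitochondrial scaling gave 0 members higher, 171 lower and a median of -0.83; 396 genes higher and 8872 lower in all; 0 and 15 silencing partners; and 1 and 53 genes under the minimum. Members that overlap no other gene (159, so fewer genes) gave 42 lower, and all tested numbered Zfp genes a median of -0.11. With mitochondrial scaling the sign turned for Zfp110 (-0.52), Zfp131 (-0.01), Zfp148 (-0.55), Zfp281 (-0.27), Zfp326 (-0.49), Zfp335 (-0.03), Zfp451 (-0.15), Zfp462 (-0.81), Zfp592 (-0.61), Zfp593 (-0.33), Zfp598 (-0.20), Zfp609 (-0.69), Zfp622 (-0.18), Zfp644 (-0.84), Zfp706 (-0.39), Zfp809 (-0.80), Zfp830 (-0.01) and Zfp91 (-0.63). Of these, Zfp110, Zfp148, Zfp462, Zfp592, Zfp609, Zfp644, Zfp809 and Zfp91 passed as lower on that scale. So did Zfp217 (-1.06), Zfp410 (-0.90), Zfp445 (-1.08) and Zfp687 (-0.99), which had not passed under TMM. In that fit 51.2% of all tested genes were lower. With library totals the sign turned for Zfp462 (-0.24), Zfp592 (-0.04), Zfp609 (-0.11), Zfp644 (-0.26), Zfp809 (-0.21) and Zfp91 (-0.05), which had not passed under TMM. Of these, Zfp644 passed as lower with library totals, beside 30.3% of all tested genes. Values near 0 also turned with the stricter filter (Zfp462 -0.02, Zfp644 -0.04) and with counts divided by 4 (Zfp644 -0.00), and ran over the left-out libraries from -0.18 to 0.10 for Zfp410, -0.03 to 0.10 for Zfp462 and -0.04 to 0.06 for Zfp644. Zfp687 ran from -0.45, where it passed as lower (edgeR adjusted p = 0.0046), to 0.07. With the replicate block 3 named genes gained a call, Zfp445 (edgeR adjusted p = 0.0306), Zfp217 (0.0431) and Zfp91 (0.0485), and it changed no other named call. Each of these scalings moves all genes by nearly the same amount. Counts made from coverage can understate counting error, most for members near 100 counts.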
